A study of Saccharomyces cerevisiae with 6 samples.

Results

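Glutathione is the main small thiol of the yeast cell, and the 10 genes described here encode the enzymes that make, reduce, break down, import and conjugate it. They are *GSH1*, *GSH2*, *GLR1*, *ECM38*, *DUG1*, *DUG2*, *DUG3*, *OPT1*, *GTT1* and *GTT2*, chosen by their role in this pathway with earlier results of these data known, and all 10 were found among the 7127 features of the count table. Their RNA was compared between 3 wild-type and 3 *snf2Δ* samples of the budding yeast *Saccharomyces cerevisiae*, in order to ask how expression of sulfur metabolism genes differs when Swi-Snf, the chromatin remodeling complex whose ATPase is Snf2, is lost. Wild type and mutant share the background HHY221, a W303 derivative of mating type a built for anchor-away experiments, which carries the rapamycin-resistant *TOR1-1* allele, lacks *FPR1* and has *RPL13A* fused to FKBP12, so the wild-type samples carry these alterations too. The deletion is listed in the strain table of the study as *snf2Δ::natMX6*. All 6 samples were taken in log phase from YPD, a rich medium, at 30 °C, at an OD600 of about 0.4 to 0.8, and none received rapamycin.

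Glutathione is a tripeptide built in consecutive steps. Gsh1 joins glutamate to cysteine, the step that limits the rate, and Gsh2 then adds glycine. Oxidized glutathione is returned to the reduced form by Glr1 at the expense of NADPH. Breakdown takes separate routes, through Ecm38 at the vacuole and through the Dug2-Dug3 complex in the cytosol, and both yield the dipeptide cysteinylglycine, which Dug1 splits. Opt1 takes up glutathione at the plasma membrane, while Gtt1 and Gtt2 are transferases that attach it to other molecules.

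The *snf2Δ* samples held less RNA of *GSH1* (2.57-fold lower), *OPT1* (1.97-fold lower) and *ECM38* (1.51-fold lower), and more RNA of *GTT1* (1.84-fold higher), *DUG3* (1.81-fold higher) and *GTT2* (1.42-fold higher). *GSH2*, *GLR1*, *DUG1* and *DUG2* did not pass the test. These calls were made by the quasi-likelihood F test of edgeR at an adjusted p under 0.05, with Benjamini-Hochberg adjustment over 5642 genes, *SNF2* included. Of the 5641 others, 1952 genes (34.6%) differed between the genotypes, 1010 lower (17.9%) and 942 higher (16.7%) in *snf2Δ*, so the counts of 3 lower and 3 higher among 10 are read against those shares. With upper quartile scaling the split of all genes was 804 lower and 1194 higher, while the members remained at 3 and 3. The median log2 fold change of the 10 genes was −0.004, beside −0.02 for all genes tested. None of the 10 also exceeded a log2 fold change of 2 in size, the additional cut stated in the methods of the study, which 2.82% of all genes passed. That count was 0 with edgeR, DESeq2 and limma-voom alike, and it was also 0 in each at an unadjusted p under 0.05. The size cut alone fixed it, whatever the p threshold, as the values of the 10 genes ran from −1.45 to 0.97 over 16 alternative analyses.

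**Figure D1:**
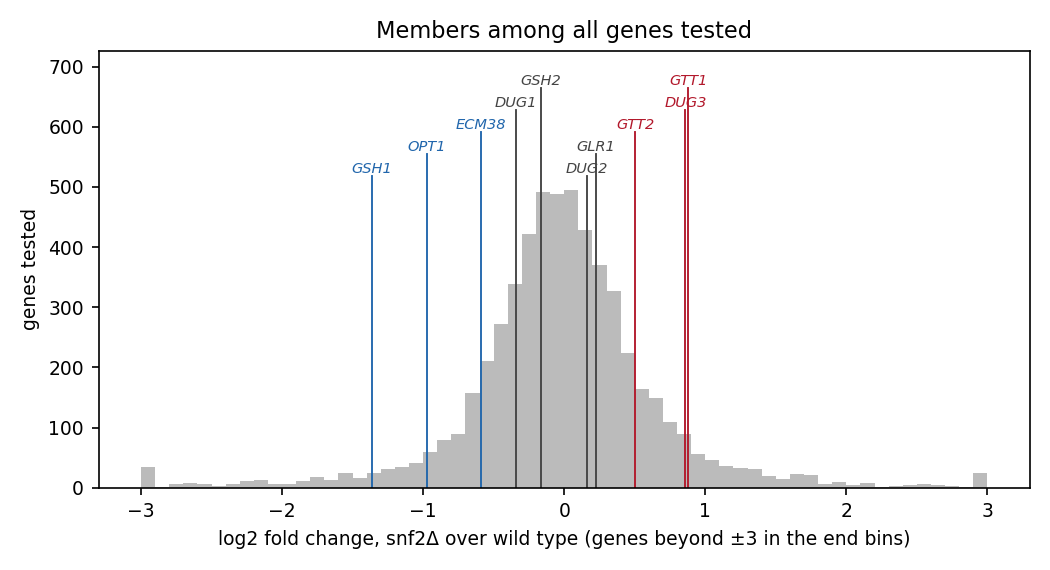
Distribution of the log2 fold change (*snf2Δ* over wild type, x axis) over the 5641 genes tested (y axis, genes per bin), with a vertical line for each of the 10 glutathione genes, blue where called lower, red where called higher and grey where not called. *GSH1*, at −1.36, lies in the left flank, where 3.44% of genes had a lower value, and *GTT1*, at 0.88, lies above 93.5% of genes.

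Each library held 4134546 to 6708036 counts, so that 3 counts, the most that a count of 0 allows, corresponded to 0.481 to 0.746 CPM (counts scaled to a common library size, with TMM factors), a limit that covers only counting error. *SNF2* itself was at 363, 298 and 365 counts in wild type and at 6, 9 and 7 in *snf2Δ*, and *FPR1*, deleted in the strain, was at 0 in all 6 libraries. The summed level of 5 genes specific to mating type a was 1421 to 2347 CPM in wild type and 1455 to 1651 CPM in *snf2Δ*, although 2 of them, the pheromone genes *MFA1* and *MFA2*, fell by 0.99 and 0.76 on the log2 scale. The alpha pheromone genes *MF(ALPHA)1* and *MF(ALPHA)2* had at most 3 counts and 1 count in a library, and the summed level of 4 alpha-specific genes, almost all of it from *SAG1*, was 39.8 to 51.3 CPM in wild type and 50.4 to 52.3 CPM in *snf2Δ*. Wild-type replicate 3 stood furthest from its group, with a chi-square per degree of freedom of 23.2 and 27.9 against the other wild-type libraries, which were at 5.69 from each other, and results that moved without it are given below. The labels do not say that the samples of a genotype were separate cultures, and each p-value therefore reflects only how far these samples scatter. In RNA from whole cultures, less RNA in every cell and fewer cells that use a gene cannot be told apart.

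**Figure D2:**
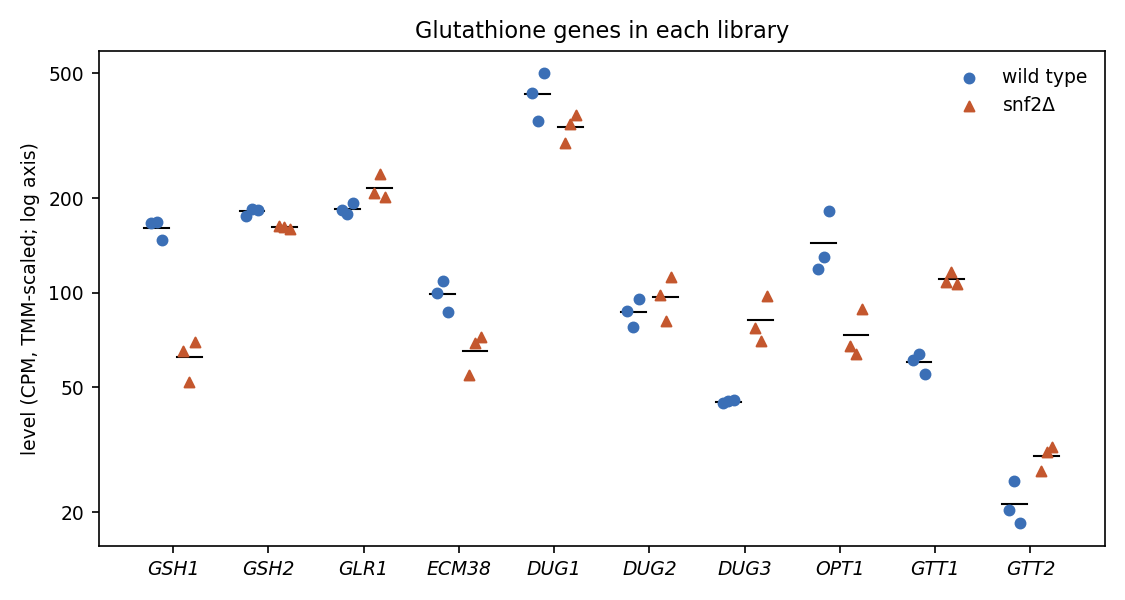
Level of each of the 10 genes in each library, in CPM scaled by TMM on a log axis, with 3 wild-type libraries (circles), 3 *snf2Δ* libraries (triangles) and the mean of each genotype (bar). The genotypes are fully separated for 8 of the 10 genes, beside 46.6% of all genes tested, and they overlap for *DUG1* and *DUG2*.

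Stretches of upstream DNA are shown for 5 of the genes, those in which a searched factor motif lay upstream of the start codon. Windows of 300 bases, from 250 bases before the start codon to 50 bases of coding sequence, were read from RefSeq (assembly R64 of strain S288C, the basis of sacCer3), and differences between S288C and the W303 background were not examined. Both strands were searched for CACGTG (Cbf1, the same on both strands), TTAGTAA and TTAGTCA (Yap1), AGGGG (the stress response element of Msn2 and Msn4), TGACTC (Gcn4) and AAACTGTGG (Met31 and Met32). A match is only a description of the letters. The window of *GSH1* (chrX:236307-236606, minus strand) held CACGTG at position −107 from the start codon, followed by the Gcn4 motif, in reverse as GAGTCA, at −96. That of *DUG3* (chrXIV:280182-280481, plus strand) held the Met31 and Met32 motif at −174. That of *GTT1* (chrIX:424464-424763, minus strand) held AGGGG or its reverse CCCCT at −241, −211 and −114, and the Yap1 motif in reverse as TTACTAA at −165. In the sequences that follow, each printed 5′ to 3′ on the strand of its gene, capitals mark these motifs.
GSH1: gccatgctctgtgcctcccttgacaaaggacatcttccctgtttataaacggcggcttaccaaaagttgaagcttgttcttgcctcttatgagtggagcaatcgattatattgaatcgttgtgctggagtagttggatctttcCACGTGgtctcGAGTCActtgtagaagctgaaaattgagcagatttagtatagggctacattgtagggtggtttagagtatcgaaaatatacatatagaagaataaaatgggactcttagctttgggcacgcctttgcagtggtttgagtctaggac
DUG3: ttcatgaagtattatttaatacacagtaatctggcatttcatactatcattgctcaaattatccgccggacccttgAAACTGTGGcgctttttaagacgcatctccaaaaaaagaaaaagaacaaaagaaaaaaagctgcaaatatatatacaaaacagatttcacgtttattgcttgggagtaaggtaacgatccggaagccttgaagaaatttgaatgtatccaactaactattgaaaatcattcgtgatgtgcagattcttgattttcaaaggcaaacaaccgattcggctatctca
GTT1: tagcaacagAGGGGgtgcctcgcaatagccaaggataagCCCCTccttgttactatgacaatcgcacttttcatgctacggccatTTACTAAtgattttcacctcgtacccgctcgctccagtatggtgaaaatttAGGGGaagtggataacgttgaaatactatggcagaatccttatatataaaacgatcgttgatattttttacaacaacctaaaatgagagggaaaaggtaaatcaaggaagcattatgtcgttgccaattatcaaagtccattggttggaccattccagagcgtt

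TTAGTAA also occurred upstream of *GLR1*, at −191, and of *GTT2*, at −98, so that 3 of the 10 windows held it, among them those of both transferase genes. Stretches of 47 bases hold it in *GLR1* (chrXVI:375291-375337, plus strand) and *GTT2* (chrXII:21911-21957, minus strand, in reverse).
GLR1: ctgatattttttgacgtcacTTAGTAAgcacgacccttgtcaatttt
GTT2: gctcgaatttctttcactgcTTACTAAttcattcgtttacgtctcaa
Over all 6001 windows of this kind in the genome, 7.45% held TTAGTAA, 2.92% CACGTG, 7.98% TGACTC, 0.43% AAACTGTGG and 21.6% AGGGG. The window of *DUG2* held AGGGG only inside the coding sequence, at position 13, and TTAGTCA, present in 3.62% of all windows, was in none of the 10. The windows of *GSH2*, *ECM38*, *DUG1* and *OPT1* held none of the motifs. None of the motifs overlapped another in these windows.

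The steps of synthesis were not changed alike. *GSH1* (YJL101C, chrX:234320-236356, minus strand) encodes γ-glutamylcysteine synthetase, and its coding sequence of 2037 bases is a single segment. In wild type its level was 166, 168 and 147 CPM, and in *snf2Δ* it was 65.2, 52.1 and 69.9 CPM. Every *snf2Δ* library lay far under the lowest wild-type library, and the means were 160.5 ± 11.96 and 62.4 ± 9.20 CPM (SD, n = 3 each). The log2 fold change was −1.36 ± 0.15 (SE), with a 95% interval of −1.67 to −1.05, which left 38.9% of the wild-type level (edgeR, adjusted p = 2.49e-06). It was the most negative value of the 10 genes, and it stayed between −1.45 and −1.24 in 16 alternative analyses.

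*GSH2* (YOL049W, chrXV:238619-240094, plus strand), which encodes glutathione synthetase, was at 176, 185 and 183 CPM in wild type and at 164, 162 and 159 CPM in *snf2Δ*. The genotypes did not overlap and the libraries within each were tightly grouped, at 181 ± 4.77 and 162 ± 2.19 CPM (SD, n = 3 each). The difference was nevertheless small, with a log2 fold change of −0.17 ± 0.13 (SE) that did not pass the test (edgeR, adjusted p = 0.324). Its 95% interval, from −0.44 to 0.10, allows a modest difference and does not reach the value of *GSH1*.

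The difference between *GSH1* and *GSH2* was also measured within each library, as log2 CPM of *GSH1* minus that of *GSH2*. It was −0.08, −0.13 and −0.32 in wild type, and −1.32, −1.62 and −1.18 in *snf2Δ*. These values compare counts and not levels per length, since *GSH1* has 2037 coding bases and *GSH2* 1476. Per kilobase of coding length, wild type had 78.8 CPM of *GSH1* and 123 CPM of *GSH2*. The mean moved from −0.18 ± 0.13 to −1.38 ± 0.22 (SD, n = 3 each), a change of −1.20, with no overlap between genotypes. A two-sided exact permutation test gave p = 0.10, the smallest value that 3 samples against 3 allow, and p = 0.10 after adjustment over the 3 such pairs examined.

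*GLR1* (YPL091W, chrXVI:375502-376953, plus strand), the gene of glutathione reductase, was at 184, 179 and 192 CPM in wild type and at 208, 239.5 and 202 CPM in *snf2Δ*. All *snf2Δ* libraries were above all wild-type libraries, though by a narrow margin. The means were 185 ± 6.97 and 216 ± 20.3 CPM (SD, n = 3 each), the log2 fold change was 0.23 ± 0.13 (SE) with a 95% interval of −0.06 to 0.51, and the test was not passed (edgeR, adjusted p = 0.203).

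Genes of the breakdown routes differed from one another. *ECM38* (YLR299W, chrXII:726069-728051, plus strand) encodes γ-glutamyltranspeptidase, the vacuolar enzyme that removes glutamate from glutathione. Wild-type libraries had 99.99, 109 and 86.9 CPM of its RNA, while the *snf2Δ* libraries had 54.8, 69.2 and 72.3 CPM. The genotypes were separated, with the highest *snf2Δ* library well under the lowest of wild type. *ECM38* fell from 98.7 ± 11.2 to 65.4 ± 9.35 CPM (SD, n = 3 each), to 66.3% of wild type, with a log2 fold change of −0.59 ± 0.15 (SE; edgeR, adjusted p = 0.00561).

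*DUG3* (YNL191W, chrXIV:280432-281505, plus strand) encodes the amidotransferase subunit of the Dug2-Dug3 complex. Its level was almost the same in the wild-type libraries, at 44.4, 45.1 and 45.4 CPM, and reached 77.4, 70.1 and 97.7 CPM in those of *snf2Δ*. The mean rose from 45.0 ± 0.496 to 81.7 ± 14.3 CPM (SD, n = 3 each), and the spread lay in *snf2Δ*, whose replicate 3 was the highest. The log2 fold change was 0.86 ± 0.15 (SE), with a 95% interval of 0.54 to 1.18 (edgeR, adjusted p = 0.00037).

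Its partner *DUG2* (YBR281C, chrII:764970-767606, minus strand) did not pass the test. The gene was at 87.2, 77.8 and 95.2 CPM in wild type and at 98.1, 81.2 and 112 CPM in *snf2Δ*, and these ranges overlapped. Its log2 fold change was 0.16 ± 0.15 (SE), with a 95% interval of −0.15 to 0.47 (edgeR, adjusted p = 0.431), and the only alternative analysis to call it was the one with replicate number as a block (replicate block) and a correction for GC content and length, at 0.33 (adjusted p = 0.0350). Within libraries, log2 CPM of *DUG2* minus that of *DUG3* went from 0.97, 0.78 and 1.06 in wild type to 0.34, 0.21 and 0.19 in *snf2Δ*. The mean changed by −0.69, with no overlap between genotypes (two-sided exact permutation p = 0.10, adjusted p = 0.10). Closer counts were not closer levels per length, since *DUG2* has 2637 coding bases and *DUG3* 1074. Per kilobase of coding length, wild type had 41.9 CPM of *DUG3* and 32.9 CPM of *DUG2*. The *snf2Δ* samples had 76.1 and 36.8 CPM per kb, so on this scale the partners were further apart in *snf2Δ*.

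*DUG1* (YFR044C, chrVI:239992-241437, minus strand), the gene of the dipeptidase that splits cysteinylglycine, was at 432, 353 and 500.3 CPM in wild type and at 299.6, 345 and 369 CPM in *snf2Δ*. The ranges overlapped, since the highest *snf2Δ* library exceeded wild-type replicate 2. The means were 429 ± 73.6 and 338 ± 35.3 CPM (SD, n = 3 each), and the log2 fold change of −0.34 ± 0.16 (SE) did not pass the test (edgeR, adjusted p = 0.0993). The call turned on single choices, as *DUG1* passed without wild-type replicate 2 (−0.47, adjusted p = 0.0474) and with total counts as the scaling (−0.35, adjusted p = 0.0436), and was at −0.22 without wild-type replicate 3.

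*OPT1* (YJL212C, chrX:33850-36249, minus strand) encodes the proton-coupled transporter that imports glutathione and some short peptides. Levels were 119, 130.4 and 182 CPM in wild type, against 67.7, 63.7 and 88.5 CPM in *snf2Δ*. The genotypes did not overlap, but replicate 3 was the highest library in each of them. *OPT1* fell from 144 ± 33.7 to 73.3 ± 13.3 CPM (SD, n = 3 each), to 51.0% of wild type, with a log2 fold change of −0.97 ± 0.18 (SE) and a 95% interval of −1.35 to −0.60 (edgeR, adjusted p = 0.000482). Without wild-type replicate 3 the value was −0.77 (adjusted p = 0.000597).

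Both transferase genes had more RNA in *snf2Δ*, with unequal certainty. *GTT1* (YIR038C, chrIX:423809-424513, minus strand) encodes a glutathione S-transferase of the endoplasmic reticulum membrane. It was at 60.9, 63.9 and 55.2 CPM in wild type and at 108, 116 and 107 CPM in *snf2Δ*. The genotypes were widely separated, and the gene rose from 60.0 ± 4.44 to 110.4 ± 4.98 CPM (SD, n = 3 each). The log2 fold change was 0.88 ± 0.13 (SE), with a 95% interval of 0.60 to 1.16 (edgeR, adjusted p = 7.89e-05), and the call held in all 16 alternatives.

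*GTT2* (YLL060C, chrXII:21138-21839, minus strand) encodes the other transferase and had the fewest counts of the 10 genes, 98 to 142 in a library. In wild type it was at 20.2, 25.1 and 18.4 CPM, and in *snf2Δ* at 26.9, 31.1 and 32.3 CPM. The lowest *snf2Δ* library was only slightly above the highest wild-type library. The means were 21.3 ± 3.45 and 30.1 ± 2.82 CPM (SD, n = 3 each), and the log2 fold change of 0.51 ± 0.18 (SE) passed the test narrowly (edgeR, adjusted p = 0.0442). The call was lost in 8 of 16 alternatives, among them the omission of wild-type replicate 1 (0.47), wild-type replicate 3 (0.41), *snf2Δ* replicate 2 (0.48) or *snf2Δ* replicate 3 (0.45). Adjusted p ran from 0.0537 to 0.186 in those 8 and from 0.0214 to 0.186 over all 16.

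Log2 CPM of *GTT1* minus that of *GTT2* was 1.57, 1.33 and 1.56 in wild type and 1.99, 1.89 and 1.71 in *snf2Δ*. The excess of *GTT1* counts was larger in each *snf2Δ* library than in any wild-type library, with means of 1.49 ± 0.13 and 1.86 ± 0.14 (SD, n = 3 each) and a change of 0.38. The two-sided exact permutation test gave p = 0.10, and p = 0.10 after adjustment.

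**Figure D3:**
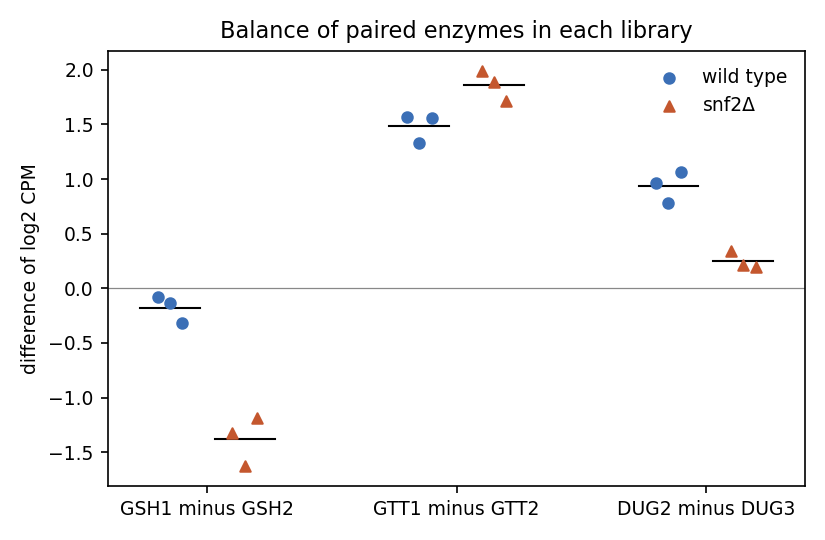
Difference of log2 CPM between the genes of 3 pairs (y axis) in each wild-type (circles) and *snf2Δ* (triangles) library, with the mean of each genotype as a bar. In none of the pairs do the genotypes overlap, and the widest gap is that of *GSH1* minus *GSH2*, from −0.18 in wild type to −1.38 in *snf2Δ*.

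To compare levels between genes, CPM were divided by coding length in kilobases. On this scale *DUG1* was the most abundant in both genotypes, at 296 ± 50.9 CPM per kb in wild type and 234 ± 24.4 in *snf2Δ* (SD, n = 3 each). In wild type it was followed by *GLR1* (127 ± 4.80 CPM per kb), *GSH2* (123 ± 3.23), *GTT1* (85.1 ± 6.30), *GSH1* (78.8 ± 5.87), *OPT1* (59.9 ± 14.0), *ECM38* (49.8 ± 5.65), *DUG3* (41.9 ± 0.462), *DUG2* (32.9 ± 3.32) and *GTT2* (30.3 ± 4.91). The ranges of *GLR1* and *GSH2*, of *GTT1* and *GSH1*, of *GSH1* and *OPT1*, of *OPT1* and *ECM38*, and of *DUG2* and *GTT2* overlapped, so the order within these pairs of neighbours is not resolved.

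The order was different in *snf2Δ*. There *GTT1* came second, at 157 ± 7.06 CPM per kb, ahead of *GLR1* at 149 ± 14.0, and *GSH2* followed at 109 ± 1.48. *DUG3* stood at 76.1 ± 13.3 CPM per kb, and after *GTT2* (42.9 ± 4.01) and *DUG2* (36.8 ± 5.82) came the genes that fell, *ECM38* (33.0 ± 4.71), *GSH1* (30.6 ± 4.52) and *OPT1* (30.5 ± 5.55). From *GTT2* down to *OPT1* each gene overlapped its neighbour, and *GTT1* overlapped *GLR1*. *GSH1* thereby moved from rank 5 to rank 9 of the 10 genes, and *GTT1* from rank 4 to rank 2.

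**Figure D4:**
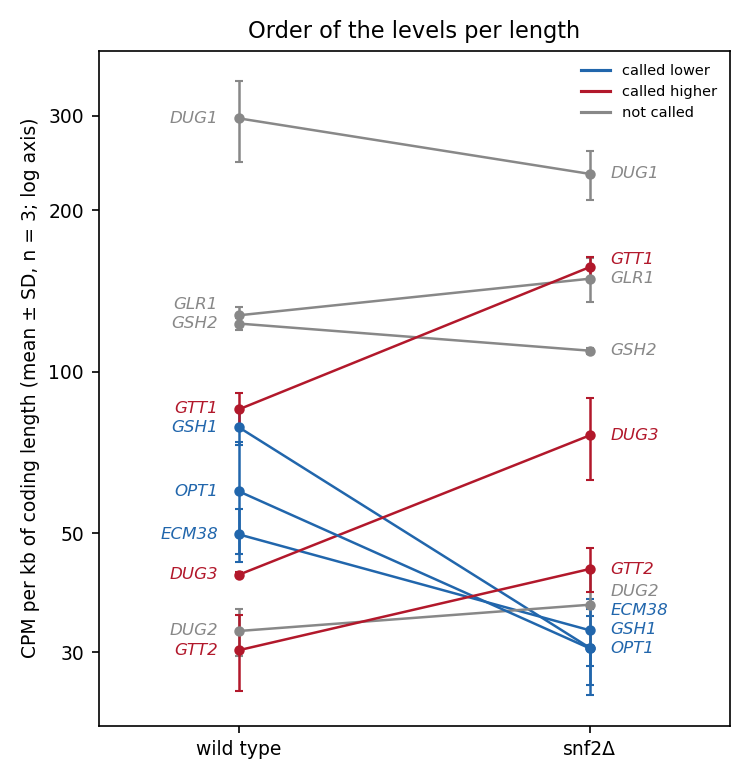
Mean level of each gene per kilobase of coding length in wild type and *snf2Δ* (CPM per kb, log axis, error bars SD, n = 3 each), with lines joining the same gene and colored by its call. *GSH1* drops from 78.8 to 30.6 while *GTT1* climbs from 85.1 to 157, and *DUG1* is highest in both.

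Neighbouring genes were examined because reads of overlapping genes may be counted together. No gene of the RefSeq annotation overlapped any of the 10, and the gaps to the nearest genes were 109 to 5984 bases. *GSH2* and *RRT8* face each other tail to tail across 109 bases, and *GTT1* and *HYR1* across 189 bases. *HYR1*, which encodes a glutathione peroxidase that also senses peroxide, had a log2 fold change of 0.15 ± 0.13 (SE) and was not called (edgeR, adjusted p = 0.408). The strand setting of the counting is not stated in the sources, and 1080 features of the table without a RefSeq match have no position in this annotation.

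Genes that use glutathione were called in both directions. Of 19 glutaredoxins, peroxidases, glyoxalases, omega transferases and formaldehyde-detoxifying enzymes, all of them tested, 5 were higher in *snf2Δ* (beside 16.7% of all genes), 3 were lower (beside 17.9%) and 11 were not called, with a median log2 fold change of 0.33 beside −0.02 for all genes. *GPX2*, a glutathione peroxidase, fell from 23.0 ± 2.22 to 6.90 ± 1.53 CPM (SD, n = 3 each), a log2 fold change of −1.74 ± 0.23 (SE; edgeR, adjusted p = 2.45e-05). *ECM4*, an omega-class transferase, rose from 27.7 ± 7.55 to 56.1 ± 6.45 CPM, by 1.03 ± 0.19 (adjusted p = 0.000711). *YJL068C*, the hydrolase of S-formylglutathione, and the glutaredoxin gene *GRX1* rose as well, by 0.65 ± 0.14 (adjusted p = 0.00145) and 0.73 ± 0.15 (adjusted p = 0.00157). The remaining calls, named here after their values were seen, were the glutaredoxin genes *GRX7* (0.60) and *GRX8* (0.81), which rose, and *GPX1* (−0.86) and *GTO1* (−0.71), which fell. Without wild-type replicate 3 the number of higher genes was 8, as *GRX3*, *GRX4* and *GRX5* were added. With upper quartile scaling that number was 7, as *GRX3* (0.45, adjusted p = 0.0186) and *GRX5* (0.40, adjusted p = 0.0276) were added. *GRX3* was also called with DESeq2 size factors, total counts, the 10 CPM filter or the replicate block, and without *snf2Δ* replicate 1. *GRX6* was called without wild-type replicate 2 (0.59, edgeR, adjusted p = 0.0246). *GPX1* was no longer called without wild-type replicate 2 (adjusted p = 0.0556), *snf2Δ* replicate 1 (0.0883) or *snf2Δ* replicate 3 (0.0965), and *GTO1* was not called without *snf2Δ* replicate 2 (0.0568).

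No gene of other breakdown and transport steps passed the test, beside 34.6% of all genes called in either direction, and the list is short. The list held 6 genes and 5 were tested, *GCG1* (0.37 ± 0.15, SE), which encodes a cyclotransferase that cleaves glutathione in the cytosol, *OXP1* (−0.23 ± 0.14), the oxoprolinase gene, *YCF1* (0.00 ± 0.14) and *BPT1* (−0.12 ± 0.13), which encode vacuolar pumps for glutathione conjugates, and *GEX2* (−0.84 ± 0.40), a glutathione exchanger gene. By edgeR, DESeq2 and limma-voom alike, 0 of the 5 were called and 1 had an unadjusted p under 0.05. *GEX1* had 1 count in all 6 libraries and was not tested, and since it is a close copy of *GEX2* the counts of both are uncertain. Without wild-type replicate 3, *GCG1* (0.37, adjusted p = 0.0475) and *GEX2* (−1.16, adjusted p = 0.0185) were called, and *GCG1* was also called with upper quartile scaling (0.45, adjusted p = 0.0253).

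Among genes of cysteine supply and of the regulators of this pathway, 1 of 6 was higher, 1 was lower and 4 were not called, beside 34.6% of all genes called in either direction. *CYS3*, whose product cystathionine γ-lyase releases cysteine, rose from 742 ± 142 to 1596 ± 241 CPM (SD, n = 3 each), by 1.10 ± 0.17 (SE) on the log2 scale (edgeR, adjusted p = 0.000132). *CYS4*, whose product cystathionine β-synthase acts just before it, fell by 0.84 on the log2 scale (SE 0.17, adjusted p = 0.00116), from 1013 ± 195 to 568 ± 78.2 CPM. The genes of these consecutive steps thus differed in direction. The transcription factor genes *YAP1* (−0.16 ± 0.13), *SKN7* (−0.13 ± 0.15), *MET4* (0.22 ± 0.14) and *CBF1* (−0.16 ± 0.16) did not pass the test. *MET4* passed it only in the alternative with correction for GC content and length (0.34, adjusted p = 0.0456).

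**Figure D5:**
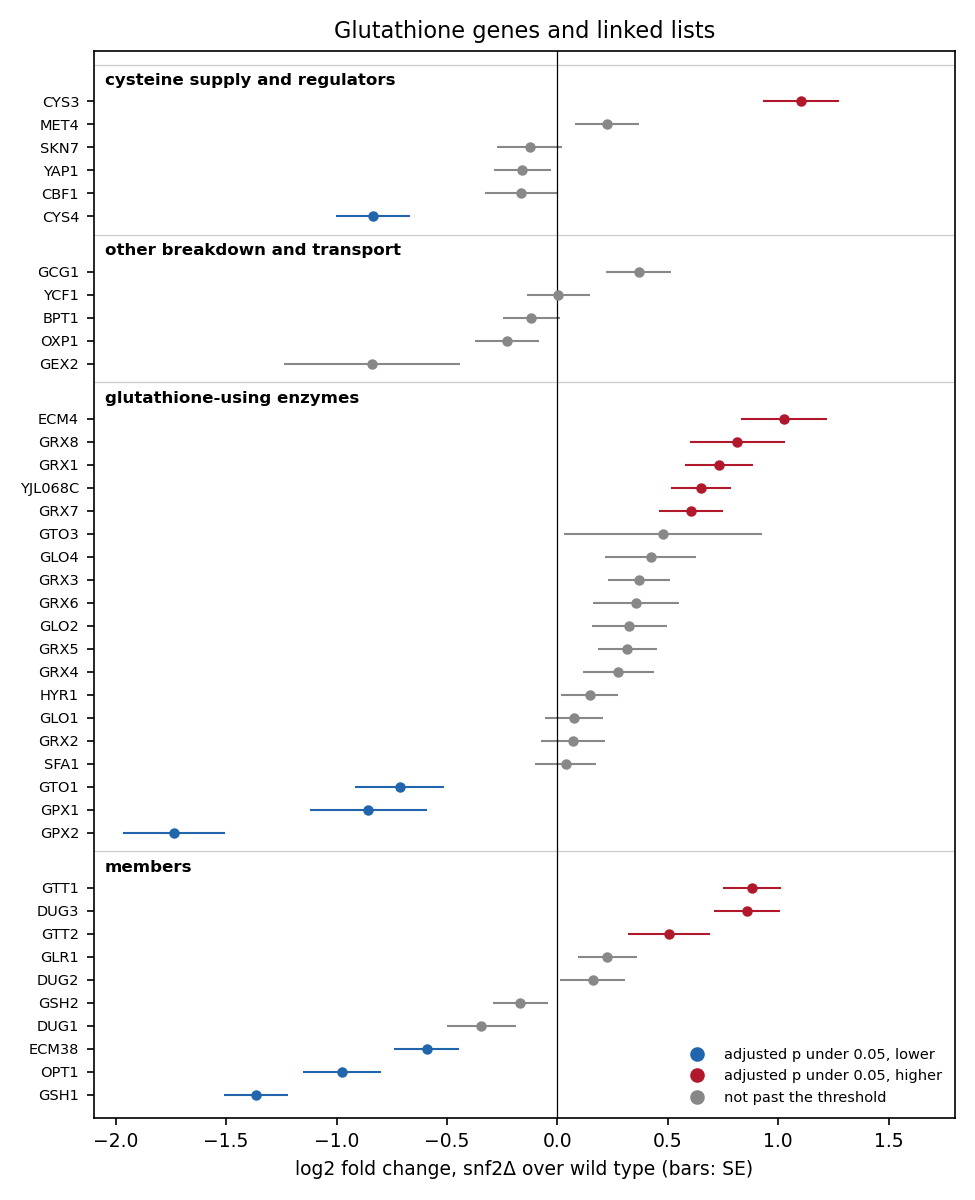
Log2 fold change of *snf2Δ* over wild type (x axis, bars SE) for the 10 glutathione genes and 3 linked lists, 1 gene a row, blue where lower and red where higher at an adjusted p under 0.05 and grey otherwise. Values run from −1.36 to 0.88 among the 10 genes and from −1.74 to 1.03 among the 19 glutathione-using enzymes, and *CYS3* and *CYS4* lie on opposite sides of 0.

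Separation of the genotypes was more frequent than a call, among the 10 genes as over all genes tested, of which 34.6% were called. For 8 of the 10 genes no *snf2Δ* library lay within the range of wild type, beside 46.6% of all genes tested, and these 8 included *GSH2* and *GLR1*, which were not called. The direction of every gene was the same in all 16 alternative analyses, and 7 of the 10 kept their call in each of them, namely *GSH1*, *GSH2*, *GLR1*, *ECM38*, *DUG3*, *OPT1* and *GTT1*. Over these analyses *ECM38* ranged from −0.68 to −0.47 with an adjusted p of at most 0.0432, *DUG3* from 0.71 to 0.96, *OPT1* from −1.13 to −0.77 and *GTT1* from 0.78 to 0.97.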

How the data were processed

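RNA was sequenced from 3 wild-type and 3 *snf2Δ* samples, grouped by their labels. Extraction was by hot phenol with poly(A) enrichment per the labels, but by a column kit per the methods of the study. Per the submitters' processing notes, bcl2fastq 2.18, STAR 2.7.3a and RSEM 1.3.0 were used with sacCer3. The authors deposited raw counts per annotated feature, not normalized, with 1 column per library. How reads matching several genes were treated is not stated.

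Of 7127 features, 6047 matched RefSeq (R64) for names, positions and sequence. In R 4.3.3, edgeR 4.0.16 was applied to all features kept by filterByExpr, with TMM scaling and genotype as the only term (glmQLFit, glmQLFTest). *SNF2* was left out of counts of genes. The SE was the size of the log2 fold change over the square root of F. Log2 CPM for pairs used a prior count of 2. As alternatives, libraries were scaled by upper quartile, total counts or DESeq2 size factors, genes were unfiltered or required to reach 10 CPM in at least 3 libraries, and each library was omitted once. DESeq2 1.42.0, limma-voom (limma 3.58.1), a block for replicate number and a loess offset for GC content and length were also run. The edgeR, DESeq2 and limma-voom steps were tested on simulated counts.

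The 10 genes, the lists and the motifs were chosen with earlier results of these data known. Genes named were the 10, *SNF2*, *FPR1*, mating-type markers, all genes of lists of up to 10 and, in the longer list, the 4 with the smallest adjusted p. *HYR1*, *RRT8*, *GRX3*, *GRX4*, *GRX5*, *GRX6*, *GRX7*, *GRX8*, *GPX1* and *GTO1* fall outside the rule and were picked once their values were known.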

Additional observations from a re-analysis of the deposited data

How the results depend on the processing

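Over 10 genes and 16 alternatives, 149 of 160 calls were as reported and none turned direction. The exceptions were *GTT2*, *DUG1* and *DUG2*. *GTT2* lost its call with total counts (0.49, adjusted p = 0.0921), the DESeq2 Wald test (0.52, adjusted p = 0.0537), the GC and length correction (0.32, adjusted p = 0.186), that correction with the replicate block (0.32, adjusted p = 0.162) and 4 omitted libraries. The members called lower numbered 3 to 4 and those called higher 2 to 3 when each library was left out. Leaving out 1 library gave 5 to 8 glutathione-using enzymes called higher and 2 to 3 called lower, and 0 to 1 genes of other breakdown and transport in each direction. The latter list had 1 gene called higher with upper quartile scaling, and cysteine supply and regulators had 2 with the GC and length correction. The count over all genes ranged from 1426 to 2493 when each library was left out. With the replicate number as a block (replicate block), 2044 genes were called, 3 members were lower and 3 higher, and no call of the 10 genes changed. Deviations of samples with the same number correlated at 0.15, −0.04 and 0.13. Of the 3 wild-type libraries, 2 correlated best with their own number. Such few and weak values do not settle whether the numbers pair the samples. The cause of these changes was not tested. *GTT2* had the fewest counts of the 10 genes, 98 to 142 in a library, and the effect of depth was not tested.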
